A study of Rattus norvegicus with 87 samples.

Results

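Expression of the nicotinic acetylcholine receptor subunit genes Chrna3 (ENSRNOG00000013829), Chrna5 (ENSRNOG00000013610) and Chrnb4 (ENSRNOG00000014427), and of Tac1 (ENSRNOG00000007374), the gene of the substance P precursor, was measured by RNA-Seq in rats of the Heterogeneous Stock (HS), in a small nucleus of the epithalamus called the lateral habenula (LHb). The 4 genes were taken by identifier from a table of 17512 genes, and all 4 were present. The HS rats are an outbred population descended from inbred founder strains, and those studied here were naive to behavioural and drug treatment. There were 41 males and 40 females, each giving 1 sample in which both sides of the LHb were pooled, and their rat batches held 15 (batch 2), 22 (batch 3), 27 (batch 4), 1 (batch 5) and 16 rats (batch 6). The labels name no engineered allele or agent in any group and give no age, and genotypes were not analysed here. Related rats can share a batch and the labels do not name litters, so relatedness was not modelled and the p-values treat the rats as independent. The study's authors tried to avoid choosing relatives, and reported several pairs that appeared closely related.

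Nicotinic receptors are pentamers that open a cation channel when acetylcholine or nicotine binds. The α3 and β4 subunits form the ligand-binding core of 1 receptor type, and α5 is an accessory subunit that joins such receptors without forming the agonist site. In the habenula these receptors are known best from the medial habenula, the neighbour of the LHb, whose neurons send their axons through the fasciculus retroflexus to the interpeduncular nucleus. Its ventral neurons are cholinergic, and a dorsal group makes the tachykinin substance P from Tac1. Gene symbols were taken only from the reference table used here, which pairs none of the other identifiers with a symbol, so markers of the medial habenula, the LHb or other tissue were not set beside the members, and the labelled tissue was not checked against them. In bulk tissue, fewer cells of a type and less RNA per cell cannot be told apart.

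The 3 subunit genes lie side by side on chromosome 8, in the order Chrna5, Chrna3, Chrnb4, between Psma4 and Ube2q2 among the protein-coding genes of RefSeq (GRCr8). Chrna5 is transcribed from the opposite strand to the other two, and Tac1 is on chromosome 4. The start windows of all 4 genes (250 bases before to 50 after the annotated start, RefSeq, GRCr8, 5′ to 3′ on the gene's own strand) are shown because 3 of the genes are neighbours and moved together between rats. Capitals mark the matches of the 5 motifs described after them. The windows are chr8:64311202-64311501 (minus strand), chr8:64265629-64265928 (plus strand), chr8:64333060-64333359 (minus strand) and chr4:36645333-36645632 (plus strand).
Chrna3: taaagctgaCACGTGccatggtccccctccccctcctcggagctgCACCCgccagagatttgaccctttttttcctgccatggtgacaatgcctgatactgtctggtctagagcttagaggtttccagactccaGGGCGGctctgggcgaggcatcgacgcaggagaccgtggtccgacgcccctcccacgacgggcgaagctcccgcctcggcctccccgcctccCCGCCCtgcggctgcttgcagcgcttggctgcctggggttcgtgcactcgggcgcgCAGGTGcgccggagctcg
Chrna5: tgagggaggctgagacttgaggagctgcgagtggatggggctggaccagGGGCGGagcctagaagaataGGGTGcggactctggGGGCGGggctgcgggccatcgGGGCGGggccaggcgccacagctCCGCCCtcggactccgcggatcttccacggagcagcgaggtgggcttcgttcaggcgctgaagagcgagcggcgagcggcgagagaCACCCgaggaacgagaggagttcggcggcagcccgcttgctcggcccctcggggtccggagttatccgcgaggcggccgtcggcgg
Chrnb4: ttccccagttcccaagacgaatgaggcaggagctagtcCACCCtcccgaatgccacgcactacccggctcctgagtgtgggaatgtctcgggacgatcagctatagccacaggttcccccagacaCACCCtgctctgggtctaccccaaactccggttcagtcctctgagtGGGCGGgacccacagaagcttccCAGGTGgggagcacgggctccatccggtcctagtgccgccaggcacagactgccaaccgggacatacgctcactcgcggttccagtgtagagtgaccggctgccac
Tac1: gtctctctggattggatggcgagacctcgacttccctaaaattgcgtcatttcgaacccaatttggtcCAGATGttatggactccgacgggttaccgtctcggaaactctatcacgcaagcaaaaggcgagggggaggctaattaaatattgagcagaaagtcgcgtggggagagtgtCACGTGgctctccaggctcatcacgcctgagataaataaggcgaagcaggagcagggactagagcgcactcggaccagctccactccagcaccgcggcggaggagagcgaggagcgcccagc

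Both strands were searched for GGGCGG (the Sp1 box), CANNTG (the E-box, which reads the same on both strands), TGACGTCA (the cAMP response element, likewise), ATAATTAAT (a site of POU4F factors, which are transcription factors of habenular neurons) and CACCC. No match overlapped another in these windows. GGGCGG occurred 4 times in the Chrna5 window, 2 times in that of Chrna3 and 1 time in that of Chrnb4, but not in that of Tac1, and 34.9% of the 27457 windows of the same length held it. CACCC occurred 2 times in Chrna5 and Chrnb4, 1 time in Chrna3 and not in Tac1, against 55.1% of all windows. The E-box occurred 2 times in Chrna3 and Tac1, 1 time in Chrnb4 and not in Chrna5, against 71.6% of all windows. Neither TGACGTCA (1.91% of windows) nor ATAATTAAT (0.306%) was found in any of the 4. The GC content was 66.7% for Chrna3, 71.3% for Chrna5, 62.3% for Chrnb4 and 56% for Tac1, beside a median of 52.3% over all windows. These matches describe letters only and say nothing of binding.

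Levels are given as log2(normalized count + 1), where a normalized count is an estimated read count scaled to a common upper quartile. The values are not divided by transcript length, so levels were compared between rats and not between genes. The scaled totals lay between 16197731 and 20182873 counts per rat. The depth before scaling, an estimate recovered for 72 rats, ranged from 5740000 to 50540000 (median 18520000). The lowest and highest estimates lie outside the range in which the method was checked. Between 296 and 1661 genes were listed at 0 in a rat (median 540), with the 3 rats of batch 3 in column run 3 at 1404 to 1578. Along the columns of the table the rat identifiers form 3 stretches, each in alphabetical order once 1 pair of rats that the authors exchanged is read by its original labels, and such a stretch is called a column run. Run 1 holds all of batch 2 and 7 rats of batch 3, run 2 holds 12 rats of batch 3, and run 3 holds the other 3 rats of batch 3 and all of batches 4, 5 and 6. What a run stands for is not given in the labels.

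Chrna3, the α subunit of the α3β4 receptor, ranged from 11.07 to 13.55 over the 81 rats, with a median of 12.79 and a mean of 12.71 ± 0.53 (SD, n = 81). In normalized counts the lowest rat had 2145, the median 7070 and the highest 12008. The lowest value was that of male rat 35 of batch 4, which also had the lowest Chrnb4.

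Chrnb4, the β subunit of that receptor, ranged from 9.42 to 11.72, with a median of 10.72 and a mean of 10.76 ± 0.53 (SD, n = 81), or 684 to 3364 normalized counts. Chrna5, the accessory subunit, ranged from 4.32 to 7.28, with a median of 6.09 and a mean of 6.07 ± 0.62 (SD, n = 81), or 19 to 154 normalized counts. It was the member with the fewest reads, with 6 to 230 recovered reads per rat (median 78, 72 rats). Counting error alone gives an SD of 0.194 on the log2 scale for Chrna5, against 0.018 for Chrna3, 0.036 for Chrnb4 and 0.039 for Tac1, so single Chrna5 values are the least precise.

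Tac1, which encodes the precursor of substance P and neurokinin A, ranged from 9.62 to 11.32, with a median of 10.41 and a mean of 10.40 ± 0.33 (SD, n = 81), or 787 to 2554 normalized counts. Its range spanned fewer log2 units than that of any of the 3 subunit genes. Every member was detected in every rat.

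**Figure D1:**
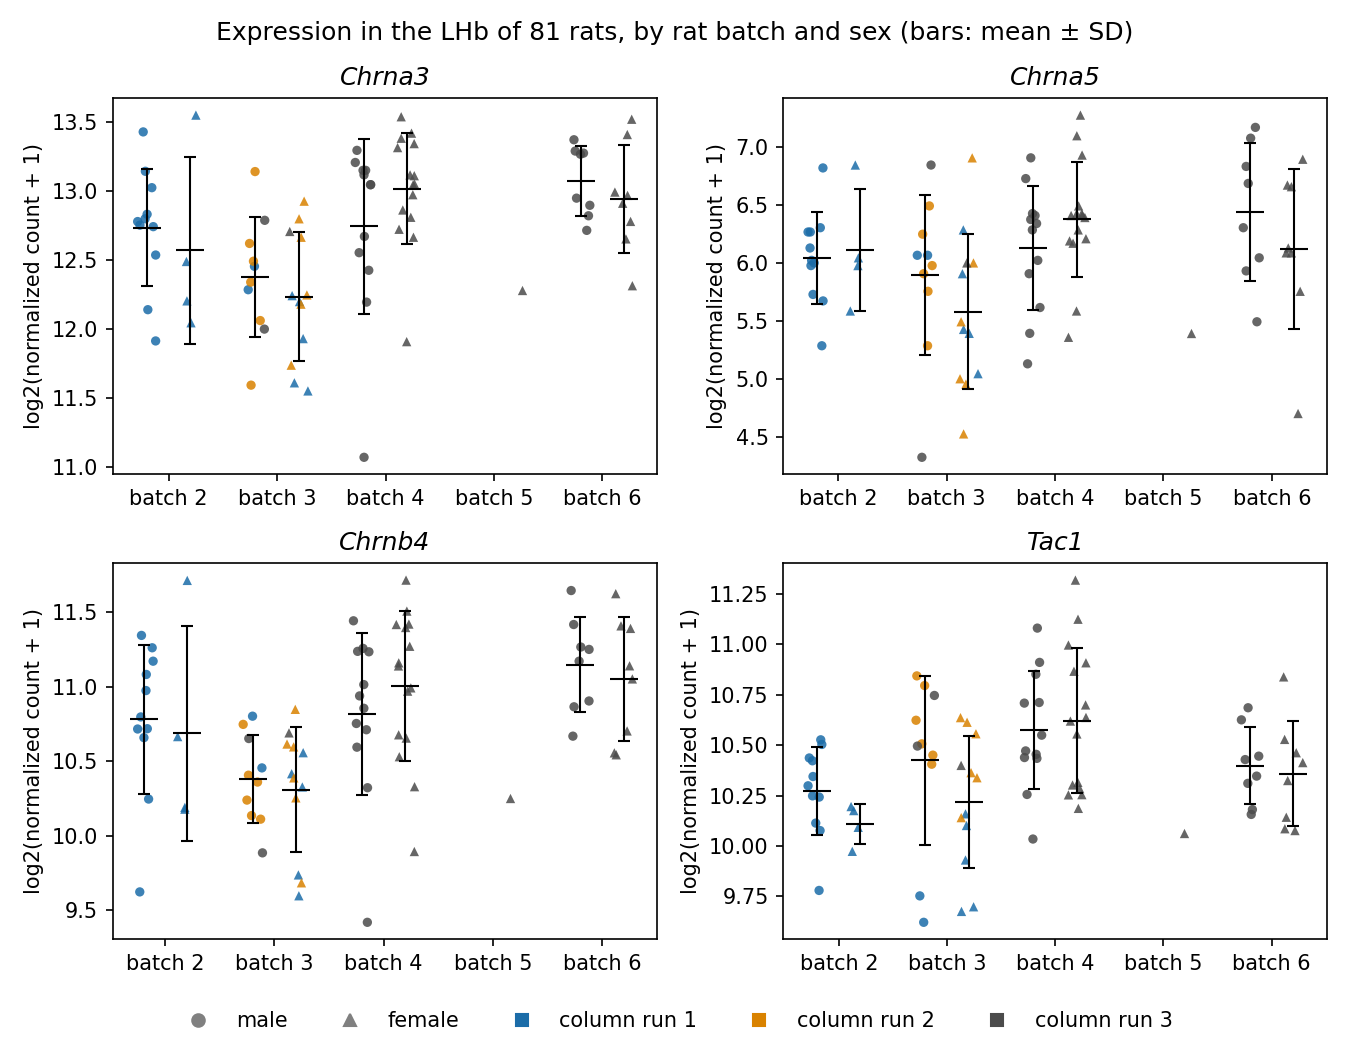
Level of each gene (vertical axes, log2(normalized count + 1)) in each of the 81 rats, by rat batch (horizontal axes) and sex; each point is 1 rat, colour is the column run, and bars give the mean ± SD of a sex in a batch. The subunit genes were lowest on average in batch 3 among the 4 larger batches, and within batch 3 the run 1 rats had the lower Tac1 levels.

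Males and females were compared first, because sex is the main group in the labels. Chrna3 had a lowest, median and highest value of 11.07, 12.79 and 13.43 in males and of 11.55, 12.79 and 13.55 in females. For Chrnb4 these were 9.42, 10.80 and 11.65 in males and 9.60, 10.67 and 11.72 in females. The sexes overlapped over nearly the whole range of both genes.

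For Chrna5 the lowest, median and highest values were 4.32, 6.07 and 7.17 in males and 4.52, 6.11 and 7.28 in females. For Tac1 they were 9.62, 10.44 and 11.08 in males and 9.68, 10.32 and 11.32 in females. These distributions overlapped as well. Adjusted for rat batch in limma (80 rats, without the single rat of batch 5), none of the 4 genes passed the test of male against female, with an adjusted p of 0.998 for each over all 17512 genes, of which 0.131% passed. The difference, male minus female, was -0.0021 for Chrna3 (95% confidence interval -0.21 to 0.20), 0.06 for Chrna5 (-0.20 to 0.32), -0.01 for Chrnb4 (-0.21 to 0.19) and 0.08 for Tac1 (-0.06 to 0.21). All 4 intervals lay between -0.21 and 0.32 on the log2 scale. The interaction of sex and batch was also tested, and limma called 0% of genes (306 genes, 1.75%, at an unadjusted p under 0.05), with an adjusted p of 1 for all 4 members.

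The batches were then compared, adjusted for sex. All 4 genes passed limma's F-test over batches 2, 3, 4 and 6, with adjusted p-values of 4e-05 (Chrna3), 0.0105 (Chrna5), 1.76e-05 (Chrnb4) and 0.000919 (Tac1). Batch differences were widespread in the table, since 65.3% of all genes passed the same test, so the 4 of 4 members that passed are not particular to these genes. The call rests on single batches. Without batch 3 the adjusted p was 0.269 for Chrna3, 0.551 for Chrna5 and 0.227 for Chrnb4, and without batch 4 it was 0.261 for Tac1.

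The means of the subunit genes shared an order of batches, which from lowest to highest was 3, 2, 4 and 6. In this order Chrna3 averaged 12.30 ± 0.45, 12.69 ± 0.48, 12.90 ± 0.53 and 13.01 ± 0.33 (SD, n = 22, 15, 27 and 16). Chrnb4 averaged 10.34 ± 0.36, 10.76 ± 0.54, 10.92 ± 0.52 and 11.10 ± 0.36 in the same order of batches, and Chrna5 averaged 5.72 ± 0.68, 6.06 ± 0.42, 6.27 ± 0.52 and 6.28 ± 0.64. By medians, batch 4 stood above batch 6 for Chrna3 (13.05 and 12.96) and Chrna5 (6.38 and 6.22), but not for Chrnb4 (10.99 and 11.16). Batch 3 differed from batches 4 and 6, as the following contrasts show.

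Chrnb4 ranged from 9.60 to 10.85 in batch 3 (median 10.40) and from 10.54 to 11.65 in batch 6 (median 11.16). It was 0.76 higher in batch 6 (SE 0.15, limma adjusted p = 6.89e-06), a 1.69-fold difference on the count + 1 scale. All 22 batch 3 rats lay below the batch 6 median, and 12 of the 16 batch 6 rats lay above every batch 3 rat.

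Chrna3 ranged from 11.55 to 13.14 in batch 3 (median 12.26) and from 12.31 to 13.52 in batch 6 (median 12.96). It was 0.71 higher in batch 6 (SE 0.15, adjusted p = 2.98e-05), or 1.64-fold, and 21 of 22 batch 3 rats lay below the batch 6 median. Chrna5 ranged from 4.32 to 6.91 in batch 3 (median 5.91) and from 4.70 to 7.17 in batch 6 (median 6.22), and was 0.56 higher in batch 6 (SE 0.19, adjusted p = 0.00826). Its batches overlapped more, with 2 batch 6 rats above every batch 3 rat. In this contrast 59.2% of all genes passed.

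Batch 4 against batch 3 gave the same direction, with Chrna3 0.60 higher (adjusted p = 6.88e-05), Chrna5 0.54 higher (adjusted p = 0.00358) and Chrnb4 0.58 higher (adjusted p = 8.61e-05) in batch 4, and 54.9% of all genes passed. None of the 3 subunits passed between batches 6 and 4, where the differences were 0.11 (95% confidence interval -0.17 to 0.40) for Chrna3, 0.01 (-0.35 to 0.37) for Chrna5 and 0.18 (-0.10 to 0.46) for Chrnb4, and 6.04% of all genes passed. The contrasts with batch 2 did not pass for a subunit either. Batch 3 minus batch 2 was -0.39 for Chrna3, -0.32 for Chrna5 and -0.42 for Chrnb4 (adjusted p = 0.0974, 0.305 and 0.0717, with 7.44% of all genes passing). The corresponding differences of batch 4 and of batch 6 from batch 2 lay between 0.16 and 0.34, with 33.9% and 42.4% of all genes passing. Neighbouring batches in the order, namely 3 and 2, 2 and 4, and 4 and 6, thus did not pass the test for any subunit gene.

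Tac1 had another order, namely batches 2, 3, 6 and 4, with means of 10.23 ± 0.21, 10.31 ± 0.38, 10.38 ± 0.22 and 10.60 ± 0.33 (SD). By medians batches 3 (10.40) and 6 (10.38) change places. It ranged from 9.78 to 10.53 in batch 2 (median 10.24) and from 10.03 to 11.32 in batch 4 (median 10.56), and was 0.39 higher in batch 4 (SE 0.10, limma adjusted p = 0.000977), or 1.31-fold. All 15 rats of batch 2 lay below the batch 4 median, and 15 of 27 batch 4 rats lay above every batch 2 rat. Tac1 was also 0.29 higher in batch 4 than in batch 3 (SE 0.09, adjusted p = 0.0028). The other 4 contrasts of Tac1 did not pass, with differences of 0.10 (batch 3 minus 2), 0.17 (6 minus 2), 0.06 (6 minus 3) and -0.23 (6 minus 4).

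Whether the batch 6 and batch 3 difference itself differed between Tac1 and a subunit was tested on the log2 ratio of the genes within each rat, a comparison chosen after the values were seen. The ratio of Tac1 to Chrna3 was 0.64 lower on the log2 scale in batch 6 (mean -2.63, n = 16) than in batch 3 (mean -1.99, n = 22), with an adjusted p of 0.00018 over 6 such tests (two-sided permutation test). For Chrnb4 the means were -0.72 and -0.03 (permutation test, adjusted p = 0.00018), and for Chrna5 they were 4.10 and 4.59 (permutation test, adjusted p = 0.0462). Batch 3 was not uniform in these ratios. In its runs 1 and 2 the mean ratio of Tac1 to Chrna5 was 4.11 and 4.81, so the batch 6 mean of 4.10 was close to that of run 1, and the difference for Chrna5 came from the other runs. The ratio to Chrna3 averaged -2.19 and -1.88 in the 2 runs and that to Chrnb4 -0.42 and 0.16, and the batch 6 means lay below these values.

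**Figure D2:**
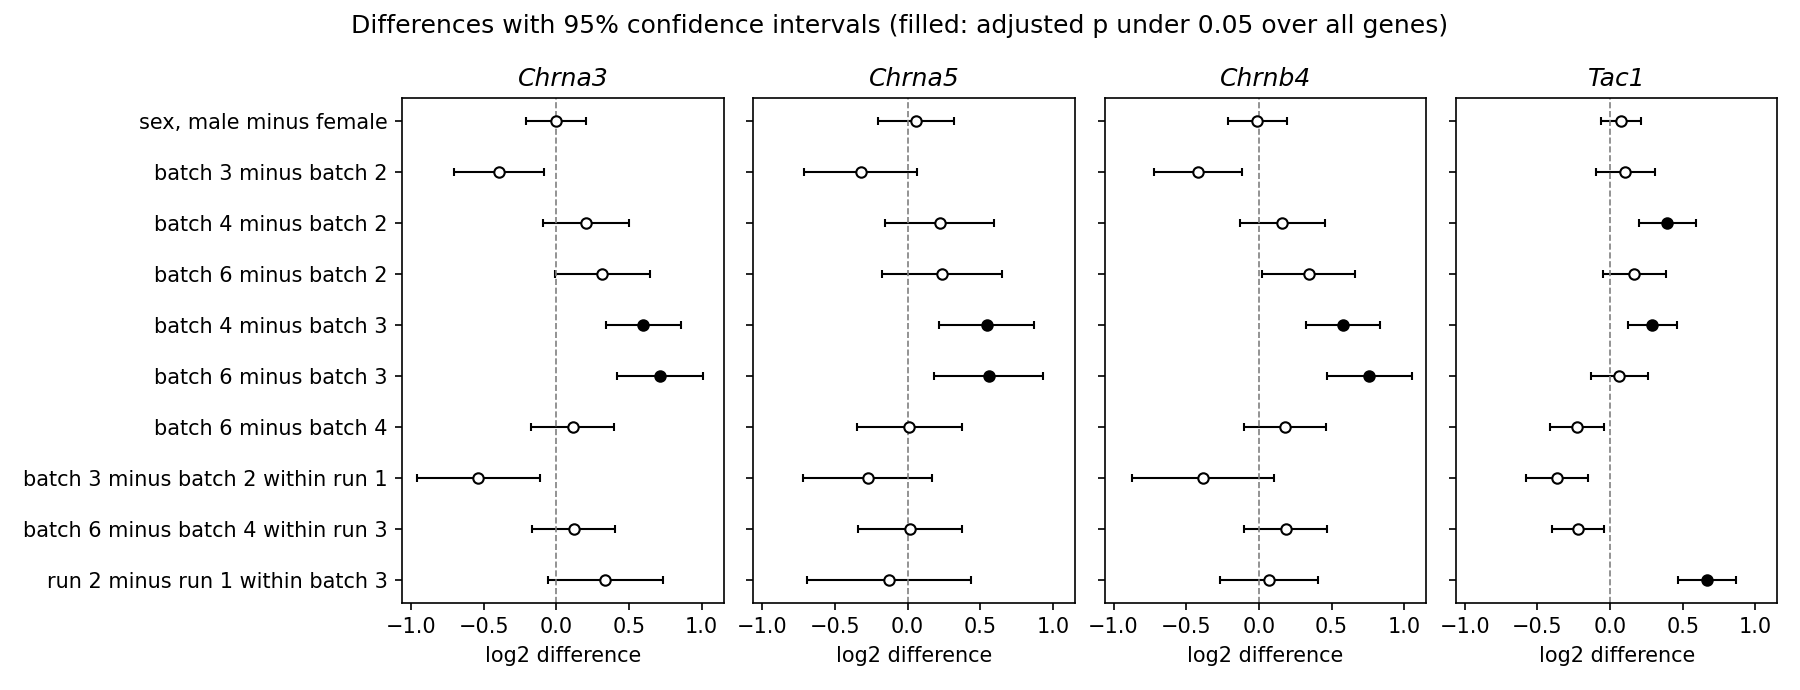
Difference in log2(normalized count + 1) (horizontal axes) for each contrast (rows) and gene (panels), with 95% confidence intervals from limma; filled points passed an adjusted p of 0.05 over all genes. The 3 subunits passed in batches 4 and 6 against batch 3, while Tac1 passed in batch 4 against batches 2 and 3 and between column runs 2 and 1 of batch 3.

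Rat batch and column run nearly coincide, so they were set apart where they cross. Within batch 3, Tac1 ranged from 9.62 to 10.16 in the 7 rats of run 1 (median 9.75) and from 10.14 to 10.84 in the 12 rats of run 2 (median 10.53). It was 0.67 higher in run 2 (SE 0.10, limma adjusted p = 0.00141), or 1.59-fold, and 23% of all genes passed. The groups barely overlapped, as 11 of the 12 run 2 rats lay above every run 1 rat. The 3 batch 3 rats of run 3 had Tac1 levels of 10.40 to 10.75.

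The subunits did not pass in the same contrast. Run 2 minus run 1 was 0.34 for Chrna3 (95% confidence interval -0.06 to 0.73, adjusted p = 0.2), -0.13 for Chrna5 (-0.69 to 0.44, adjusted p = 0.767) and 0.07 for Chrnb4 (-0.27 to 0.41, adjusted p = 0.791). The genes were also compared on the ratio within each rat, again chosen after the values were seen and adjusted over the same 6 tests. That adjustment does not cover the choice. The run difference of Tac1 exceeded that of Chrnb4 by 0.58 (exact permutation test, adjusted p = 0.0281) and that of Chrna5 by 0.70 (exact permutation test, adjusted p = 0.0462). For Chrna3 the excess of 0.31 did not pass (exact permutation test, adjusted p = 0.161). The number of genes listed at 0 moved with the runs, with a median of 451 in run 1, 654 in run 2 and 1550 in run 3 of batch 3, and its part in the Tac1 difference was not tested within the batch.

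Batches 2 and 3 meet in run 1, and batches 4 and 6 in run 3. Within run 1 (15 and 7 rats), batch 3 minus batch 2 was -0.54 for Chrna3 (95% confidence interval -0.96 to -0.11), -0.28 for Chrna5 (-0.72 to 0.17), -0.38 for Chrnb4 (-0.87 to 0.11) and -0.36 for Tac1 (-0.58 to -0.15). No member passed there, and limma called 0% of genes (1507 genes, 8.61%, at an unadjusted p under 0.05). For Tac1 the sign within run 1 is opposite to that of batch 3 minus batch 2 over all runs, which was 0.10. Within run 3, no member passed between batches 6 and 4, where 10% of all genes did, and the difference of Tac1 was -0.22 (95% confidence interval -0.40 to -0.04, adjusted p = 0.0973).

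With column run added to the fit, the F-test over batches still passed for Chrna3 (adjusted p = 0.0219), Chrnb4 (0.0362) and Tac1 (0.00653), but not for Chrna5 (0.399). In that fit 6180 of the 17512 genes passed, so these calls are not particular to the members. The single contrast of a subunit that still passed was Chrnb4 in batch 6 against batch 3, at 0.69 (SE 0.28, adjusted p = 0.0457). Tac1 then was 0.53 lower in batch 6 than in batch 2 (SE 0.20, adjusted p = 0.033), whereas without the run it was 0.17 higher and did not pass. How many of all genes passed these contrasts with the run is not given here. The Tac1 difference of batch 4 from batch 2 turned from 0.39 to -0.30 (adjusted p = 0.274), and that from batch 3 fell to 0.06 (adjusted p = 0.803). Rat batch and run thus cannot be told apart for most of these differences.

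The spread between rats that remained after sex and batch was larger for the subunits than for most genes. The residual SD was 0.467 ± 0.038 (SE) for Chrna3, 0.458 ± 0.037 for Chrnb4, 0.582 ± 0.047 for Chrna5 and 0.304 ± 0.025 for Tac1, on the log2 scale. Among the 13361 genes whose mean log2 value reached 5, the median was 0.225 and the quartiles were 0.164 and 0.319. Of these genes, 91.3% had a lower residual SD than Chrna3, 90.7% than Chrnb4, 95.7% than Chrna5 and 72.3% than Tac1. The mean of Chrna5, 6.07, lies near the limit of 5, and counting error alone gives it an SD of 0.194. Genes were not matched by level, so its rank is not comparable with those of the other members.

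**Figure D3:**
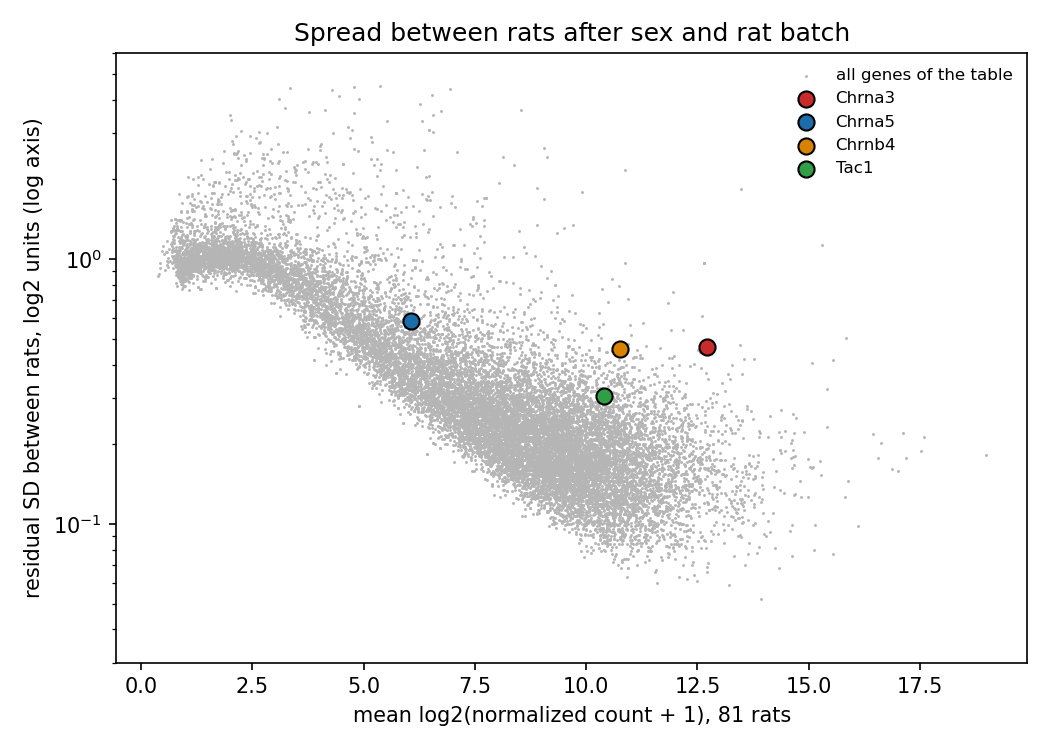
Residual SD between rats after sex and rat batch (vertical axis, log2 units on a log axis) against the mean level over 81 rats (horizontal axis, log2(normalized count + 1)); grey points are the genes of the table and coloured points the 4 members. Chrna3 and Chrnb4, at 0.467 and 0.458, lie above the upper quartile of 0.319 over the filtered genes, and Tac1, at 0.304, lies below it.

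The members were then compared with each other over the 80 rats, on residuals after sex and batch, with 6 pairs adjusted together. Chrna3 and Chrnb4, the neighbouring genes whose products assemble together, rose and fell together closely, with Pearson's r = 0.906 (permutation p = 1e-05, the smallest that 100000 permutations can give, adjusted p = 2e-05) and Spearman's rho = 0.886 (permutation p = 1e-05, adjusted p = 2e-05). Without the 2 rats farthest from the Chrna3 median, r was 0.880. Within batches 2, 3, 4 and 6, r was 0.96, 0.85, 0.94 and 0.81 (n = 15, 22, 27 and 16). The log2 ratio of the 2 genes had a residual SD of 0.201, less than that of either gene alone.

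Chrna5 was correlated with both, less closely. With Chrnb4 r was 0.627 and rho was 0.625, and with Chrna3 r was 0.575 and rho was 0.590 (permutation p = 1e-05 and adjusted p = 2e-05 for each). Without the same 2 rats r was 0.580 with Chrnb4 and 0.519 with Chrna3, and within batches it lay between 0.58 and 0.73 for Chrnb4 and between 0.43 and 0.78 for Chrna3. The log2 ratios of Chrna5 to Chrnb4 and to Chrna3 had residual SDs of 0.463 and 0.494. After the first 20 expression components were also removed, r of Chrna3 and Chrnb4 was 0.842 (permutation p = 1e-05, adjusted p = 6e-05), while Chrna5 no longer passed with Chrnb4 (r = 0.225, permutation p = 0.0695, adjusted p = 0.209) or with Chrna3 (r = 0.054, permutation p = 0.692, adjusted p = 0.977).

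Tac1 did not pass with any subunit. Pearson's r was 0.077 with Chrna3 (permutation p = 0.515, adjusted p = 0.676), -0.050 with Chrna5 (permutation p = 0.676, adjusted p = 0.676) and -0.048 with Chrnb4 (permutation p = 0.666, adjusted p = 0.676), and rho was 0.181, -0.005 and 0.039 (permutation p = 0.115, 0.962 and 0.737, adjusted p = 0.172, 0.962 and 0.885). Without the 2 rats farthest from the Chrna3 median r was 0.252 with Chrna3 (permutation p = 0.0263, adjusted p = 0.0394), 0.030 with Chrna5 (permutation p = 0.808, adjusted p = 0.808) and 0.084 with Chrnb4 (permutation p = 0.437, adjusted p = 0.524). The relation of Tac1 and Chrna3 therefore depends on the rats and terms included. The 2 rats were male rat 35 and female rat 35 of batch 4, whose residuals were -1.83 and -0.99 for Chrna3 and 0.44 and 0.56 for Tac1. Without batch 4 r was 0.321 (permutation p = 0.0248, adjusted p = 0.0372). With column run removed too, r over the 80 rats was -0.047 (permutation p = 0.691, adjusted p = 0.691). Without batch 3 it was -0.066 (permutation p = 0.634, adjusted p = 0.761). Leaving out the 2 rats with the run removed was not tested. The r of Tac1 and Chrna3 also varied between batches, at 0.14, 0.34, -0.34 and 0.57 in batches 2, 3, 4 and 6. The corresponding values for Chrnb4 were 0.10, -0.00, -0.34 and 0.52, and those for Chrna5 0.14, -0.15, -0.36 and 0.54. All 3 subunits had a negative r with Tac1 in batch 4 and a positive one in batch 6, and the difference between these batches was not tested. Without male and female rat 35, r within batch 4 was 0.03 for Chrna3, -0.04 for Chrnb4 and -0.14 for Chrna5 (n = 25), so most of the negative values there rest on these 2 rats.

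**Figure D4:**
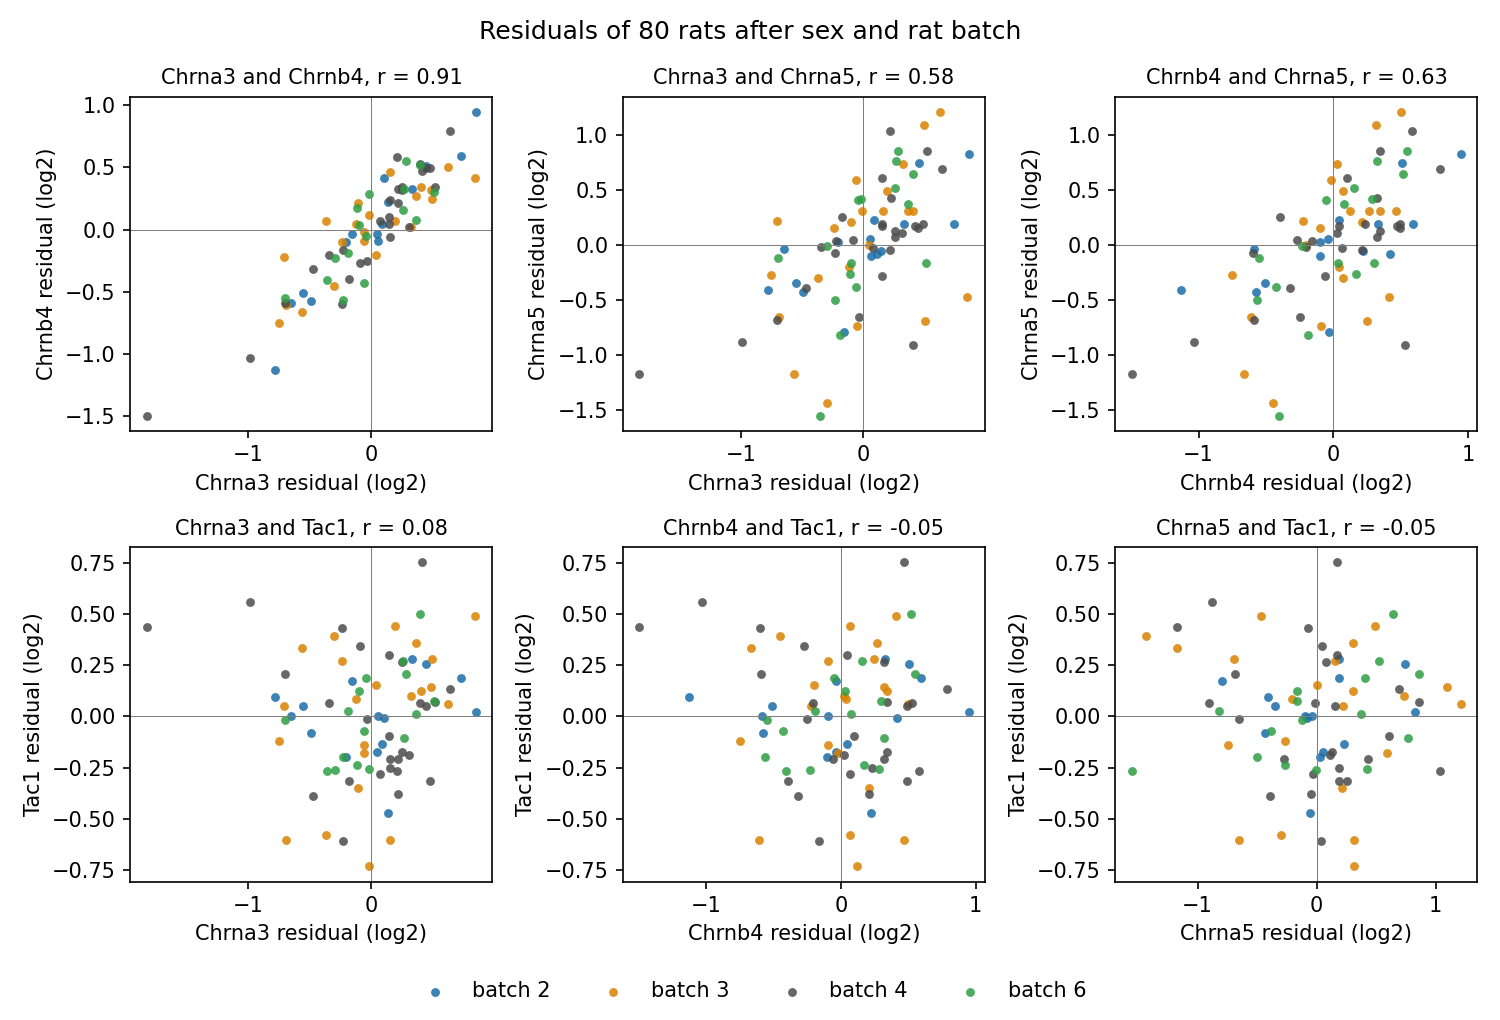
Residual levels after sex and rat batch (both axes, log2 units) for the 6 pairs of genes, with 1 point for each of 80 rats, coloured by batch. The upper row holds the pairs of subunits, with r of 0.91, 0.58 and 0.63, and the lower row the pairs with Tac1, with r of 0.08, -0.05 and -0.05.

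The extreme rats were compared as well. Of the 10 rats with the lowest Chrna3, 9 were among the 10 with the lowest Chrnb4, 5 among those with the lowest Chrna5 and 2 among those with the lowest Tac1. Of the 10 rats with the highest Chrna3, 6 were among the 10 highest for Chrnb4, 4 for Chrna5 and 2 for Tac1. Unrelated genes would share 1.23 rats on average, so the counts for Tac1 are near that number. As these lists use the levels before adjustment, batch contributes to them.

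To see how particular these relations were, each member was correlated with all 13360 other genes whose mean log2 value reached 5, as a description without a test. These values share the same libraries and the same scaling. Chrnb4 had rank 2 among all genes for likeness to Chrna3, behind ENSRNOG00000007636 (r = 0.912), and Chrna3 had rank 3 for likeness to Chrnb4, behind ENSRNOG00000019560 (r = 0.932) and 1 other gene. Chrna5 had rank 221 for Chrna3 and rank 219 for Chrnb4, with 1.65% and 1.63% of genes more alike. Among genes most like Chrna5, Chrnb4 had rank 36 and Chrna3 rank 92.

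Chrna3 and Chrnb4 were not alone in this pattern. Of 13357 genes other than the members, 36 had an r of at least 0.8 with Chrna3 and 39 with Chrnb4. Of these, 28 were shared, being 77.8% of the first list and 71.8% of the second. Since Chrna3 and Chrnb4 had r of 0.906 with each other, a large overlap follows from that correlation and adds little to it. These 28 genes had a median r of 0.62 with Chrna5 and of 0.03 with Tac1, where they ranged from -0.14 to 0.28. No gene reached 0.8 with Chrna5 or Tac1, whose highest values were 0.72 and 0.73. For Tac1, the ranks of Chrna3 (5431), Chrnb4 (7064) and Chrna5 (7094) lay in the middle of the list. The least like genes had r of -0.73 for Chrna3, -0.64 for Chrna5, -0.74 for Chrnb4 and -0.70 for Tac1. The number of genes listed at 0 in a rat, on a log2 scale after sex and batch, had r of -0.09 with Chrna3, -0.21 with Chrna5, -0.25 with Chrnb4 and 0.32 with Tac1 over the 80 rats, and its part in the correlations between members was not tested directly.

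**Figure D5:**
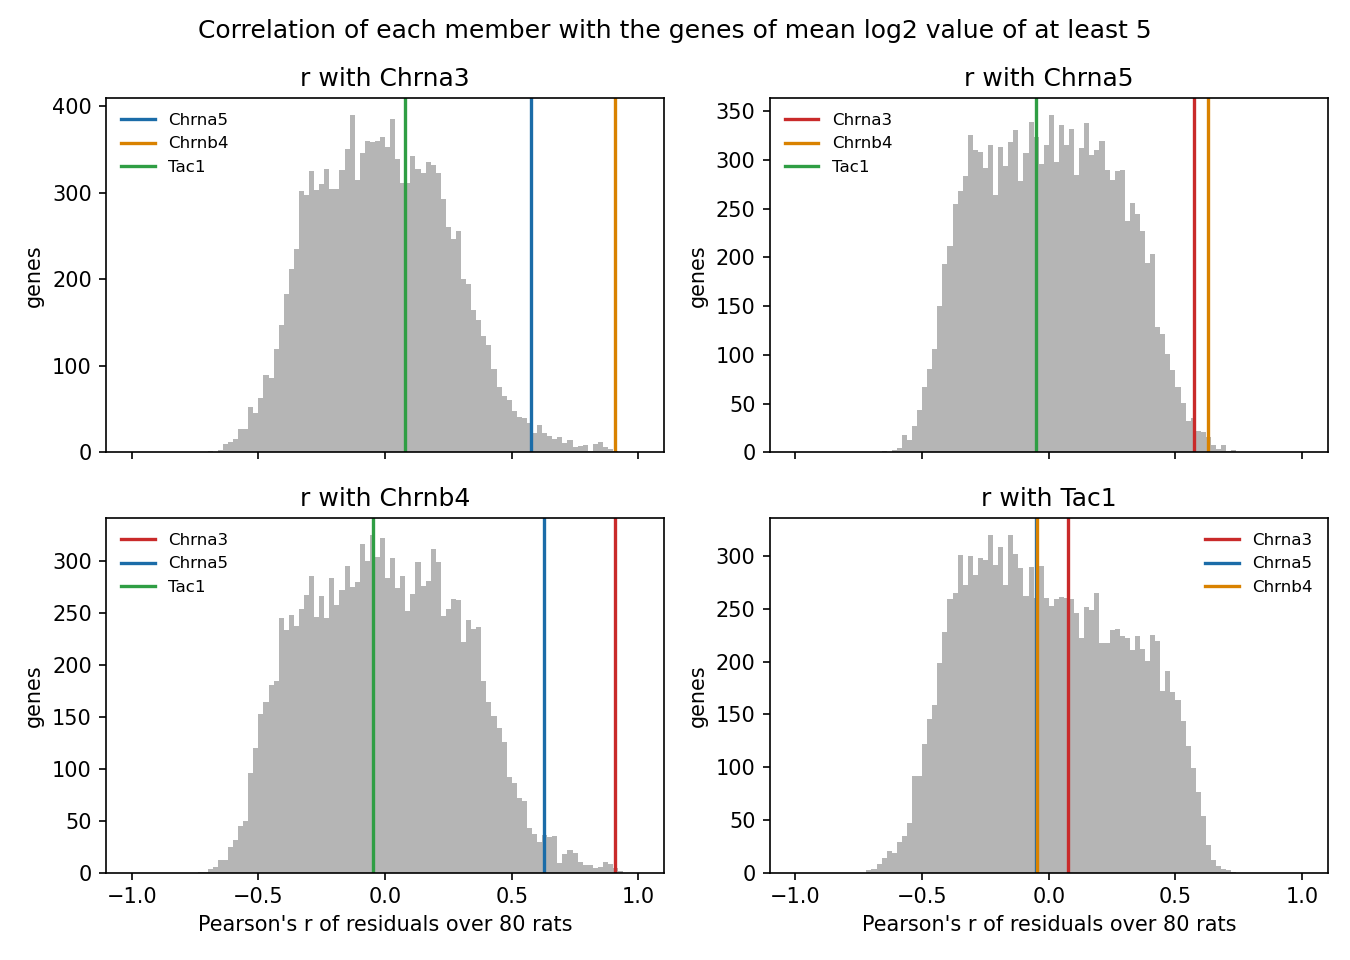
Distribution of Pearson's r of residuals over 80 rats (horizontal axes) between each member (panels) and the 13360 other genes whose mean log2 value reached 5 (vertical axes, number of genes); coloured lines mark the other members. Chrna3 and Chrnb4 lie at the upper end of each other's distribution at 0.91, and Tac1 lies near the middle for each subunit.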

How the data were processed

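RNA-Seq was performed on polyadenylated RNA from the LHb of HS rats. Bilateral tissue was dissected by hand from frozen sections. Per the study's methods, the authors trimmed reads with cutadapt, estimated counts per gene with RSEM on an Ensembl transcriptome (build Rnor_6.0 per the labels), scaled them to a common upper quartile with DESeq2, and deposited log2 values after adding a pseudocount of 1. Tool versions were not given in the sources used here. Estimated counts share reads between similar transcripts, and the log2 difference understates changes of genes with low counts. Of 87 samples, the authors had removed 6, which were not analysed here.

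Depth was recovered from the steps between low values where one scaling factor was better than any other by 10 log-likelihood units, which held for 72 of 81 rats. Sex (adjusted for batch), batch (adjusted for sex) and their interaction were tested with limma 3.58.1 in R 4.3.3 (lmFit, eBayes with trend) on the 80 rats of batches 2, 3, 4 and 6, two-sided or by F-test, with p-values adjusted by Benjamini and Hochberg's method across the 17512 genes (threshold 0.05). In a simulation that shifted 200 of 17512 genes by 0.5, the sex test recovered 96.5% of them and 3.5% of its calls were false. Its noise was independent between genes, and the shifted genes were drawn from those with a mean of at least 5. The median residual SD of such genes was 0.225, and those of the members were higher, from 0.304 (Tac1) to 0.582 (Chrna5). The simulation therefore does not give the power of the sex test for the members. Correlations used residuals after sex and batch, with 100000 permutations of rats within batch and sex. Tests between members used the log2 ratio within a rat without adjustment for sex, with all permutations (runs) or 100000 (batches). Python 3.11.15 with numpy 2.4.6, scipy 1.17.1 and pandas 2.3.3 was used.

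The members, the lists and the tests were chosen with earlier results of these data known. Named were the 4 members and, by their correlation, the genes most like them, for which at most 2 identifiers without a symbol are printed. Symbols of the members come from the rule that chose them. Other symbols were taken only from the RefSeq table given, which paired none of the other identifiers with a symbol, so lists of nicotinic and tachykinin genes and of cell type markers were not analysed here. Promoter windows of all 4 members were matched by symbol in RefSeq (GRCr8), a build other than that of the table. The alternatives tried were a pseudocount of 8, a minimum mean of 5, a rank-based transformation, leaving out each batch, column run, genes at 0 or 20 expression components as covariates, and, added after the data were seen, leaving out the 9 rats with over 1000 genes at 0 and, for correlations, the same 2 rats from every pair.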

Additional observations from a re-analysis of the deposited data

How the results depend on the processing

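No paired analysis was possible because no label ties a rat of 1 group to a rat of another. Of 398 alternative values of the members, 349 kept their direction and side of the threshold, or moved by less than their SE. F-tests have no direction, and the interaction passed in no setting. Size was disregarded for differences and correlations. Chrna3 in batch 3 against 2, for example, counted as kept at -0.39 and at -0.67 with the run. The count is therefore no measure of how stable the values were. No sex difference passed under any alternative, and its sign turned for Chrna3 without batch 4 (0.14), with 20 components in place of batch (0.12) and without the 9 rats with over 1000 genes at 0 (0.02), for Chrnb4 under the same alternatives (0.08, 0.01 and 0.02), for Chrna5 without batch 3 (-0.04) and without batch 6 (-0.01), and for Tac1 with the components (-0.09). The F-test over batches was lost without batch 3 for Chrna3 (adjusted p = 0.269), Chrna5 (0.551) and Chrnb4 (0.227), without batch 4 for Tac1 (0.261), and with column run added for Chrna5 (0.399). These fits hold fewer rats (58 without batch 3 and 53 without batch 4) or an added term. Without batch 4 the F-test still passed for Chrna3 (adjusted p = 5.25e-05), Chrna5 (0.0394) and Chrnb4 (1.33e-05). Without batch 3 it still passed for Tac1 (adjusted p = 0.000873). The cause of the losses was not tested.

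Among the pairwise batch contrasts, 176 alternative values were unchanged in this sense. With column run added, the sign turned for Tac1 in batch 3 against 2 (-0.37), 4 against 2 (-0.30), 6 against 2 (-0.53) and 6 against 3 (-0.16), and for Chrna3 in 4 against 2 (-0.27) and 6 against 2 (-0.16). In that fit the contrasts of batch 4 or 6 with batch 2 or 3 rest on the 3 batch 3 rats of run 3. It also turned for Tac1 in 3 against 2 with genes at 0 added (-0.01), and for Chrna5 in 6 against 4 with genes at 0 added (-0.05) and after the rank-based transformation (-0.02). The run ended 6 calls against batch 3, and without batch 4 the Chrnb4 difference between batches 6 and 2 passed (0.36).

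With 20 components removed, r fell to 0.05 for Chrna3 and Chrna5 and to 0.23 for Chrna5 and Chrnb4. For Chrna3 and Tac1, r passed without the 2 rats farthest in Chrna3, both rats 35 of batch 4 (0.25), and without batch 4 (0.32), and was -0.05 with the run removed and -0.07 without batch 3. The sign turned without passing for Chrna5 and Tac1 without batch 4 (0.06) and without the same 2 rats (0.03), and for Chrnb4 and Tac1 by rank (0.04), without batch 4 (0.12), without the same 2 rats (0.08, both values chosen after the data were seen) and without the 2 rats farthest in Chrnb4, male 35 of batch 4 and male 20 of batch 2 (0.03). The residual SD with 20 components removed was 0.278 (Chrna3), 0.409 (Chrna5), 0.286 (Chrnb4) and 0.180 (Tac1). It was 0.518 for Chrna5 with a pseudocount of 8 and 0.257 for Tac1 with the run removed.

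Over all genes, sex gave 23 calls and 7 with the components. Batch gave 11444 calls, 6180 with the run, 8737 without batch 3 and 10440 without batch 4. The interaction gave 1 with a pseudocount of 8, and batch 3 against 2 within run 1 gave 1 with the filter. Alternatives that needed marker levels were not run, because the reference table used pairs no other identifier with a symbol. Depth limits Chrna5 the most.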

Other observations

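The single rat of batch 5, a female left out of every fit, had log2 levels of 12.28 for Chrna3, 5.39 for Chrna5, 10.26 for Chrnb4 and 10.06 for Tac1. Each member was searched for a rat far from the others wherever a sex had 4 to 10 rats in a batch, and 0 were found in 16 searches, where chance gives about 0.8. Larger groups were not searched, among them both sexes of batch 4 and the males of batch 2. These hold male and female rat 35 of batch 4 and male rat 20 of batch 2, which were among the farthest rats for Chrna3 or Chrnb4. The search therefore says nothing of the rats in these larger groups. The 2 rats farthest in Chrna5 after sex and batch were in searched groups and were not picked out. They were female rat 11 of batch 6 (residual -1.55) and male rat 26 of batch 3 (-1.43). Finding 0 rats thus does not mean that no rat of a searched group stood apart.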
